A study of Mus musculus with 10 samples.

Results

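The 35 genes described here encode matrix metalloproteases (MMPs), ADAM and ADAMTS proteases, and the tissue inhibitors of metalloproteases (TIMPs), and were chosen by gene symbol among the 16667 genes of the deposited table of normalized counts. They comprise 9 secreted MMPs, 5 MMPs held at the cell membrane, 4 TIMPs, 7 ADAMs and 10 ADAMTS proteases. All 35 were also among the 29242 genes listed with TPM, a unit that gives the length-corrected share of all transcripts and so allows levels of different genes to be set side by side. RNA was sequenced from visceral fat of 5 mice with orthotopic KPC tumours and 5 mice after sham surgery, all wild-type C57BL/6 animals aged 10 weeks. KPC tumours stem from genetically engineered mice that develop pancreatic ductal adenocarcinoma, and an orthotopic tumour grows in the host's own pancreas. Titles of all samples end in gwat. The sources used here do not give the mice's sex, the KPC line or clone, the time since inoculation or any weight loss. The series' title places the comparison within adipose tissue wasting in cancer.

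MMPs are zinc-dependent endopeptidases that are made as inactive precursors and cut collagens, laminins, proteoglycans and other extracellular proteins. ADAMs are membrane proteases that release the outer parts of cytokines, growth factors and receptors from the cell surface, and ADAMTS proteases are secreted enzymes that process procollagens and cut proteoglycans such as versican and aggrecan. TIMPs bind the active site of these enzymes, and fat tissue uses the system when its matrix is remodelled around growing, shrinking or inflamed adipocytes.

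No member passed the test for KPC against sham, while 5 members stood higher and 1 lower in KPC fat before adjustment for the number of genes. Timp1, Mmp3, Adam9, Adamts1 and Adamts15 were higher and Adamts5 was lower, each at an unadjusted p under 0.05. The difference of each gene is the limma estimate on log2(normalized count + 1), KPC minus sham, with p-values adjusted over the 14203 genes that had a mean normalized count of at least 10. Of the members, 34 reached that level, and only Mmp13, a collagenase, did not. In limma 0 of 34 members were called at an adjusted p under 0.05, and their adjusted p-values ran from 0.198 to 0.983. Among all genes tested, 0.0493% were called higher and 0.00704% lower, 0.0563% in all. At an unadjusted p under 0.05, 5 of 34 members (14.7%) were higher, against 7.61% of all genes tested, and 1 of 34 (2.94%) was lower, against 5.91% of all genes. No member had all KPC mice above or all KPC mice below the sham mice, a pattern met by 2.75% and 1.28% of all genes, 4.03% in all. The members' median difference was 0.08 on the log2 scale, and the median over all genes was -0.02. Of the members, 20 (58.8%) were positive and 14 negative, against 46.9% positive among all genes tested. In bulk tissue, fewer cells of a type and less RNA per cell cannot be told apart.

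**Figure D1:**
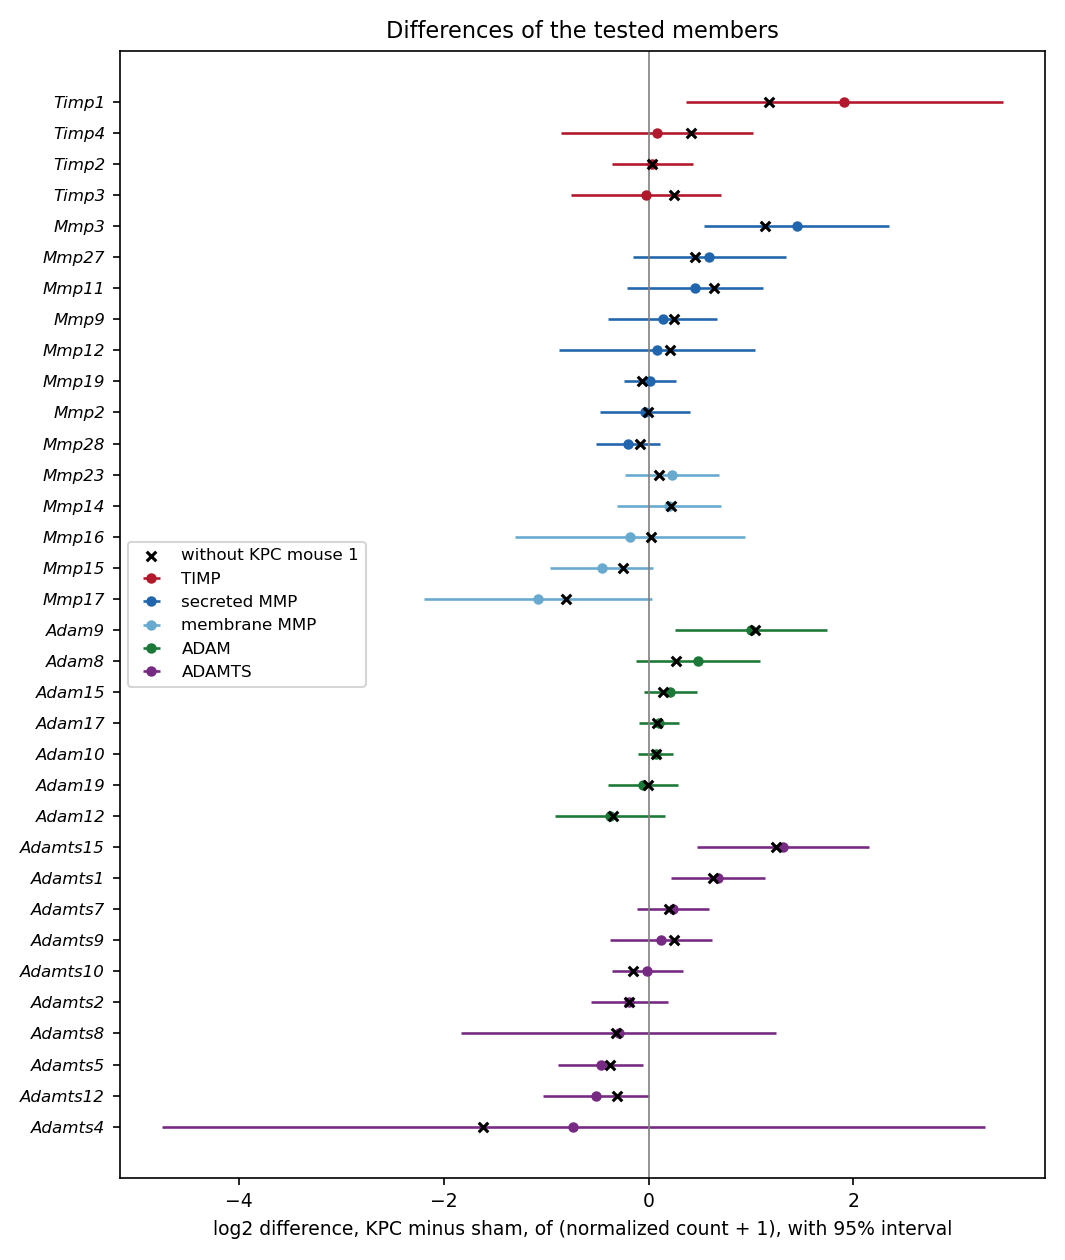
Difference of each of the 34 tested members between 5 KPC and 5 sham mice, on the log2 scale of normalized count + 1 (horizontal axis), by family and by size. Points are limma estimates, lines their 95% intervals and crosses the estimates without KPC mouse 1; the intervals of 6 members leave out 0, and those of Timp1, Mmp16, Mmp17, Adamts4 and Adamts8 are the longest.

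Library totals ran from 21829230 to 22664217 normalized counts in KPC mice 2 to 5 and from 21932976 to 24449863 in the sham mice. KPC mouse 1 stood apart, with 20941242 normalized counts, 15.7% of its TPM from mitochondrial genes against 26.3% to 33.3% in the other 9 mice, and a median correlation with the other mice of 0.908 against 0.939 to 0.959. Results that turn on this mouse are therefore also given without it. All 6 adipocyte markers were present in every mouse, with summed levels of 22821 to 28275 TPM in KPC fat and 23461 to 31739 TPM in sham fat. Of 5 epididymis markers, 4 were at 0 in every mouse.

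Promoter sequence is shown for Mmp3, Timp1 and Adamts1, the 3 of the 6 genes above with a window in the RefSeq table used, because these genes carry the differences described below. Each window, on GRCm38.p6, runs from 250 bases before to 50 bases after the annotated start, 5′ to 3′ on the gene's own strand. Capitals mark AP-1 motifs (TGANTCA, or the variant TGAGTAA) and the TATA motif TATAAA. The Mmp3 window is chr9:7445572-7445871 on the plus strand, that of Timp1 is chrX:20869916-20870215 on the plus strand, and that of Adamts1 is chr16:85803064-85803363 on the minus strand.
Mmp3: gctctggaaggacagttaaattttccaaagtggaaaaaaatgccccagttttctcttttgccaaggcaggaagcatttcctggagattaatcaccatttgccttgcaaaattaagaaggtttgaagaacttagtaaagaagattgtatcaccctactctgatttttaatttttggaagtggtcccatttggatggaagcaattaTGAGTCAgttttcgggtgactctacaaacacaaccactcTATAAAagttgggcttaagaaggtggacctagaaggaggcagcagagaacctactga
Timp1: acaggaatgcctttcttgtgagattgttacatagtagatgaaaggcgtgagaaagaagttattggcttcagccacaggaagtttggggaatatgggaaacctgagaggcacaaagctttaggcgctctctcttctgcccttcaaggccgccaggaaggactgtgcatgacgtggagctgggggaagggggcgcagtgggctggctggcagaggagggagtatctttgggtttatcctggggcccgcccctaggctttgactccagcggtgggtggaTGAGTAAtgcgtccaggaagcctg
Adamts1: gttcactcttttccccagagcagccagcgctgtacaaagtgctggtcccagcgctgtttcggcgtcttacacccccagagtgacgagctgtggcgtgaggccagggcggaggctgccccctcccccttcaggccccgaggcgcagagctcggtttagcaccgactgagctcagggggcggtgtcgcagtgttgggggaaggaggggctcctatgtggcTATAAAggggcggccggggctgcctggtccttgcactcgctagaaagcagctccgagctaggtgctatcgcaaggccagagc
The Mmp3 window holds an AP-1 motif at positions -46 to -40 and a TATA motif at -7 to -2, counted from the annotated start with no position 0. In Adamts1 a TATA motif lies at -32 to -27, and Timp1 has the AP-1 variant at 27 to 33.

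Of the 35 members, 22 had at least 1 RefSeq window, 26 windows in all. The AP-1 motif TGANTCA, read on both strands, was in 4 of them, those of Mmp3, Mmp12, Mmp13 and Adam19, and in 7.81% of the 32851 promoter windows of all genes. The variant TGAGTAA was in 1 member window and in 2.68% of all windows. The motif TATAAA was in 4 member windows (Mmp3, Mmp12, Mmp13 and Adamts1) and in 13.6% of all windows. A STAT motif, TTCNNNGAA, was in both windows of Mmp23 and in 8.30% of all windows. AP-1 is a dimer of Fos and Jun proteins, and a match only says that these letters are present.

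Mmp13, Mmp12, Mmp3 and Mmp27 follow each other on chromosome 9 in that order on the same strand, with 61.0 kb, 76.3 kb and 115 kb between neighbours. The stretch from the AP-1 motif to the TATA motif, both in capitals, is set out for the 3 of them that hold both, at chr9:7272479-7272503 for Mmp13, chr9:7347330-7347383 for Mmp12 and chr9:7445776-7445820 for Mmp3, all on the plus strand.
Mmp13: TGACTCAtcactatcatgcTATAAA
Mmp12: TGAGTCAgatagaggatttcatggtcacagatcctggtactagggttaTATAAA
Mmp3: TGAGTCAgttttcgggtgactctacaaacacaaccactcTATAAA
The motifs are 12 bases apart in Mmp13, 41 in Mmp12 and 32 in Mmp3. The TATA motif lies at -16 to -11 in Mmp13 and -7 to -2 in Mmp3, but past the annotated start, at 5 to 10, in Mmp12. The Mmp12 stretch lies inside the gene span used for the distances, which starts at 7344381. These 3 neighbours with the same pair of motifs had unlike levels, at means of 0.126 TPM for Mmp13, 1.24 TPM for Mmp12 and 19.8 TPM for Mmp3 over the 10 mice.

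Among the inhibitors, Timp1 stood higher in KPC fat and the other 3 TIMPs differed by less than their spread. Timp1 encodes a secreted inhibitor of most MMPs that is induced by cytokines in many tissues. The gene lies on chromosome X from 20870166 to 20874735 (GRCm38, plus strand), wholly inside the opposite-strand gene Syn1. Timp1 stood at 191, 18.0, 25.5, 16.6 and 8.56 TPM in KPC mice 1 to 5, against 8.93, 6.61, 3.74, 7.18 and 11.2 TPM in sham mice 1 to 5. KPC mouse 1 was far above all others, 4 of 5 KPC mice were above every sham mouse, and KPC mouse 5 lay within the sham range. The means were 51.9 ± 77.9 TPM in KPC fat and 7.54 ± 2.78 TPM in sham fat (SD, n = 5 each). On the log2 scale the difference was 1.91 ± 0.70 (SE), a 3.76-fold higher level with a 95% interval of 1.29 to 11.0 (limma adjusted p = 0.296). Without KPC mouse 1 the log2 difference was 1.18, and only without sham mouse 3 was the unadjusted limma p no longer under 0.05 when 1 mouse was left out.

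Timp2, Timp3 and Timp4 did not share this pattern. Timp2, which inhibits MMPs and also takes part in the activation of MMP2 at the cell surface, had the highest mean of all members, at 187 TPM over the 10 mice. It stood at 177, 152, 161, 249 and 189 TPM in KPC mice, against 106, 185, 221, 185 and 250.1 TPM in sham mice. The groups covered much the same range, and the log2 difference was 0.04 ± 0.18 (limma adjusted p = 0.947). Timp3 encodes a matrix-bound inhibitor that also blocks ADAM17. Its levels were 35.1, 59.2, 65.4, 170.2 and 137 TPM in KPC mice, against 72.4, 79.0, 98.4, 83.2 and 82.9 TPM in sham mice. The KPC mice lay on both sides of the sham mice, 3 below and 2 above all of them, and the log2 difference was -0.02 ± 0.33 (adjusted p = 0.983). Timp4, which is known for its expression in adipose tissue, heart and brain, stood at 6.46, 27.0, 9.99, 26.1 and 30.2 TPM in KPC mice, against 8.83, 11.9, 29.0, 19.7 and 19.4 TPM in sham mice. Its groups also overlapped, with a log2 difference of 0.08 ± 0.43 (adjusted p = 0.951). Each of Timp1, Timp3 and Timp4 lies inside a synapsin gene on the opposite strand (Syn1, Syn3 and Syn2), and these host genes stayed at or under 0.774 TPM in every mouse.

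**Figure D2:**
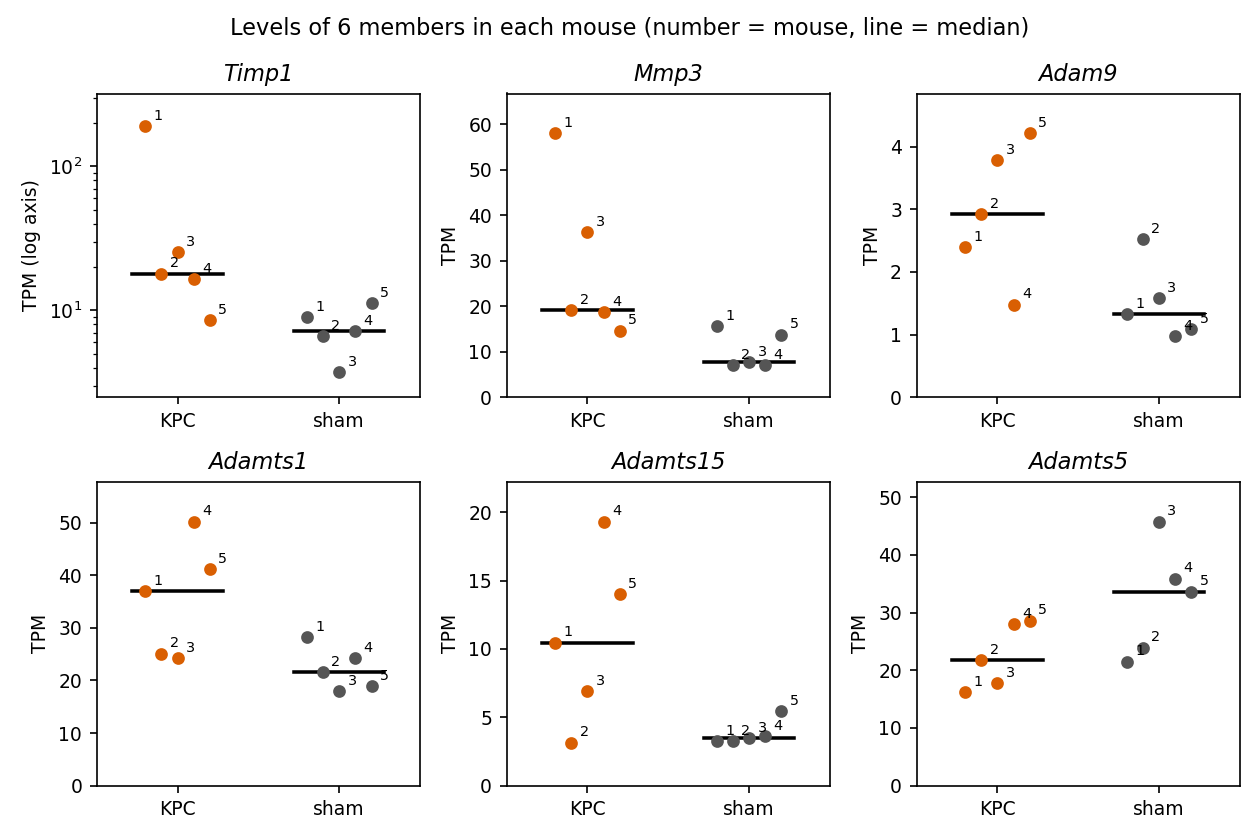
Levels of Timp1, Mmp3, Adam9, Adamts1, Adamts15 and Adamts5 in TPM in each of 5 KPC (left) and 5 sham mice (right), with points numbered by mouse, lines at the group medians and a log axis for Timp1. In each of the 6 panels the groups overlap, and Timp1 and Mmp3 were highest in KPC mouse 1, at 191 and 58.1 TPM.

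Among the secreted MMPs, Mmp3 was the member with the smallest p. It encodes stromelysin, which cuts many matrix proteins and activates the precursors of other MMPs, and lies on chromosome 9 from 7445822 to 7455975. Mmp3 stood at 58.1, 19.1, 36.3, 18.7 and 14.6 TPM in KPC mice, against 15.7, 7.08, 7.66, 7.00 and 13.8 TPM in sham mice. All KPC mice but the fifth were above every sham mouse, and the groups overlapped only where KPC mouse 5 lay below sham mouse 1. The means were 29.4 ± 18.1 TPM in KPC fat and 10.2 ± 4.15 TPM in sham fat (SD, n = 5 each). The log2 difference was 1.44 ± 0.41, a 2.72-fold higher level with a 95% interval of 1.46 to 5.09 (limma adjusted p = 0.198). The unadjusted p stayed under 0.05 when any 1 mouse was left out, and the difference was 1.13 without KPC mouse 1.

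The other secreted MMPs were not separated between the groups. Mmp2, the gelatinase that is activated by membrane MMPs, stood at 31.8, 28.7, 30.8, 55.6 and 38.6 TPM in KPC mice, against 25.5, 41.4, 36.8, 32.4 and 60.4 TPM in sham mice. The highest Mmp2 level was in sham mouse 5, the lowest in sham mouse 1, and the log2 difference was -0.03 ± 0.20 (adjusted p = 0.960). Mmp9, the other gelatinase, averaged 22.7 ± 4.28 TPM in KPC fat and 22.3 ± 9.48 TPM in sham fat (SD, n = 5 each). Mmp12, the macrophage elastase, averaged 1.17 ± 0.480 TPM in KPC fat and 1.31 ± 1.06 TPM in sham fat. Its sham spread came mostly from sham mouse 2, at 3.14 TPM. Mmp11 (0.46 ± 0.30) and Mmp27 (0.59 ± 0.34) had positive log2 differences that did not pass, at limma adjusted p-values of 0.527 and 0.465. Mmp19 and Mmp28 differed by 0.01 ± 0.12 and -0.20 ± 0.14 on the log2 scale. Mmp13 was near the bottom of the measurable range, at 0.127 ± 0.0706 TPM in KPC fat and 0.126 ± 0.0398 TPM in sham fat.

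In the fit of all 10 mice none of the 5 membrane MMPs reached an unadjusted p under 0.05, and their median log2 difference was -0.18. Mmp14 encodes the membrane collagenase that activates pro-MMP2 together with TIMP2, and is annotated on chromosome 14 from 54431612 to 54445364. It stood at 42.2, 33.5, 48.3, 66.4 and 51.8 TPM in KPC mice, against 24.3, 40.6, 42.9, 40.8 and 76.4 TPM in sham mice. Sham mice 1 and 5 bracketed every KPC mouse, and the log2 difference was 0.20 ± 0.23 (limma adjusted p = 0.734). Mmp17, a lipid-anchored MMP, had the most negative difference of all members, -1.08 ± 0.51 (limma adjusted p = 0.385). It stood at 0.540, 1.18, 1.02, 1.37 and 2.89 TPM in KPC mice, against 1.12, 1.91, 2.12, 3.11 and 8.77 TPM in sham mice. Sham mouse 5 was far above the rest, and it was also the mouse with the highest summed smooth muscle markers (2772 TPM) and skeletal muscle markers (3092 TPM). Over the 5 smooth muscle markers the sums ran from 258 to 1087 TPM in KPC fat and from 371 to 2772 TPM in sham fat, with no marker of either muscle list at 0 in all mice. Over the 5 skeletal muscle markers they ran from 49.4 to 176 TPM in KPC fat and from 42.2 to 3092 TPM in sham fat. Their part in the Mmp17 values was not tested. Mmp15 differed by -0.46 ± 0.23, Mmp16 by -0.18 ± 0.51 and Mmp23 by 0.23 ± 0.21 on the log2 scale, none of them passing.

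Of the 7 ADAMs, Adam9 alone had an unadjusted p under 0.05 in the fit of all 10 mice. ADAM9 is a widely expressed membrane protease with shedding activity, and its gene is annotated on chromosome 8 from 24949611 to 25016927 on the minus strand. Adam9 stood at 2.39, 2.92, 3.78, 1.48 and 4.22 TPM in KPC mice, against 1.32, 2.53, 1.58, 0.973 and 1.09 TPM in sham mice. KPC mice 2, 3 and 5 were above every sham mouse, and KPC mice 1 and 4 lay inside the sham range. The means were 2.96 ± 1.09 TPM in KPC fat and 1.50 ± 0.620 TPM in sham fat (SD, n = 5 each). The log2 difference was 1.00 ± 0.34, a 2.00-fold higher level with a 95% interval of 1.19 to 3.35 (limma adjusted p = 0.274), and it was 1.04 without KPC mouse 1.

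For the best known sheddases the levels of the 2 groups overlapped, with narrow intervals. Adam17, the sheddase of TNF, its receptors and ligands of the EGF receptor, stood at 13.2, 12.1, 11.6, 15.6 and 13.2 TPM in KPC mice, against 11.7, 12.8, 12.3, 11.5 and 14.4 TPM in sham mice. The groups overlapped, and the log2 difference was 0.10 with a 95% interval of -0.10 to 0.30 (limma adjusted p = 0.646). Adam10, which sheds Notch and cadherins, averaged 25.8 ± 2.19 TPM in KPC fat and 25.1 ± 2.45 TPM in sham fat (SD, n = 5 each), with an interval of -0.10 to 0.24 on the log2 scale. Adam10 and Adam17 had the smallest errors among the members, 0.08 and 0.09, against a median of 0.23 over all 34. Adam15 was the most abundant protease gene of the group, at 117 ± 21.6 TPM in KPC fat and 102 ± 9.48 TPM in sham fat, with a log2 difference of 0.21 ± 0.12 (adjusted p = 0.442). Adam8, known from myeloid cells, differed by 0.48 ± 0.27 (adjusted p = 0.461) and was highest in KPC mouse 1, at 3.52 TPM. Adam12 and Adam19 differed by -0.38 ± 0.25 and -0.05 ± 0.16, and neither passed.

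The ADAMTS proteases held members on both sides. Adamts1 and Adamts15 were higher and Adamts5 was lower in KPC fat before adjustment, while the median of the 10 was -0.10 on the log2 scale. All 3 encode proteoglycanases that cut versican or aggrecan. Adamts1 and Adamts5 are neighbours on chromosome 16, from 85793827 to 85803113 and from 85856173 to 85901828, with 53.1 kb between them on the same strand.

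Adamts1 stood at 37.0, 25.1, 24.2, 50.2 and 41.2 TPM in KPC mice, against 28.2, 21.5, 18.0, 24.3 and 18.9 TPM in sham mice. KPC mice 1, 4 and 5 were above every sham mouse, and KPC mice 2 and 3 lay within the sham range. The means were 35.5 ± 11.0 TPM in KPC fat and 22.2 ± 4.17 TPM in sham fat (SD, n = 5 each). The log2 difference was 0.68 ± 0.21, a 1.60-fold higher level with a 95% interval of 1.16 to 2.19 (limma adjusted p = 0.243). The unadjusted p stayed under 0.05 without any 1 mouse.

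Its neighbour Adamts5 stood at 16.2, 21.8, 17.7, 27.9 and 28.6 TPM in KPC mice, against 21.5, 23.9, 45.7, 35.9 and 33.6 TPM in sham mice. Sham mice 3 to 5 were above every KPC mouse, and KPC mice 1 and 3 were below every sham mouse. The means were 22.4 ± 5.70 TPM in KPC fat and 32.1 ± 9.77 TPM in sham fat (SD, n = 5 each), and the log2 difference was -0.47 ± 0.19 (limma adjusted p = 0.328). The unadjusted p went over 0.05 without KPC mouse 1, KPC mouse 3 or sham mouse 3, 4 or 5, and with TPM in place of normalized counts. The log2 ratio of Adamts1 to Adamts5 was taken on normalized count + 1, without correction for gene length. It therefore compares mice and does not say which gene was the more abundant. The ratio was -0.04, -1.02, -0.78, -0.38 and -0.70 in KPC mice, against -0.84, -1.38, -2.57, -1.79 and -2.06 in sham mice. This ratio was chosen after the values were seen and so has no test, and its groups overlap at sham mouse 1.

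Adamts15, on chromosome 9 from 30899155 to 30922452 (minus strand), stood at 10.5, 3.14, 6.92, 19.3 and 14.0 TPM in KPC mice, against 3.23, 3.27, 3.47, 3.63 and 5.44 TPM in sham mice. All KPC mice except the second were above every sham mouse, and KPC mouse 2 had the lowest TPM of all 10. The means were 10.8 ± 6.26 TPM in KPC fat and 3.81 ± 0.927 TPM in sham fat (SD, n = 5 each). The log2 difference was 1.31 ± 0.38, a 2.49-fold higher level with a 95% interval of 1.39 to 4.44 (limma adjusted p = 0.212). With KPC mouse 2 left out the estimate was 1.68 at an adjusted p of 0.0391, the only setting in which a member was called, and the adjusted p ran from 0.0391 to 0.442 over the 21 alternative settings. Adamts8 lies 20.1 kb away on the opposite strand and differed by -0.29 ± 0.70 on the log2 scale.

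The remaining ADAMTS genes gave no separation. Adamts2, the procollagen N-proteinase, averaged 29.1 ± 4.06 TPM in KPC fat and 35.0 ± 9.76 TPM in sham fat (SD, n = 5 each), with a log2 difference of -0.19 ± 0.17. Adamts12, which cuts cartilage oligomeric matrix protein, differed by -0.51 ± 0.24 (limma adjusted p = 0.375), and Adamts7, which cuts the same protein, by 0.24 ± 0.16. Adamts9 and Adamts10 differed by 0.12 ± 0.23 and -0.01 ± 0.16. Adamts4, an aggrecanase, was listed at 8.60, 3.97, 3.79, 0 and 0.131 TPM in KPC mice, against 2.67, 3.11, 0.0413, 3.04 and 3.31 TPM in sham mice. KPC mice 4 and 5 and sham mouse 3 were close to 0, and the other 7 mice lay between 2.67 and 8.60 TPM. Of the 35 members, 19 overlap another annotated gene, 17 of them on the opposite strand. These are overlaps of whole gene spans, introns included, and overlaps of exons were not examined. Without a stated strand setting, only reads from exon stretches shared by opposite-strand genes cannot be told apart.

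Levels per length ran from 187 TPM down to 0.126 TPM and differed far more between members than between groups. Over the 10 mice, 2 members had a mean of at least 100 TPM (Timp2 and Adam15), 16 lay between 10 and 100, 13 between 1 and 10, and 4 below 1 (Mmp27, Mmp16, Adamts8 and Mmp13). After Timp2 at 187 and Adam15 at 109 came Timp3 at 88.3, Mmp14 at 46.7 and Mmp2 at 38.2 TPM. The ranges of Adam15 and Timp3 overlapped over the 10 mice, as did those of Mmp14 and Mmp2, so the order of these neighbours is not beyond their spread. Summed per mouse, TIMP transcripts reached 350.8 ± 90.8 TPM in KPC fat and 297.8 ± 66.9 TPM in sham fat (SD, n = 5 each). The 9 secreted MMPs summed to 148 ± 15.9 TPM in KPC fat and 131 ± 20.5 TPM in sham fat, and the 5 membrane MMPs to 92.6 ± 16.3 TPM in KPC fat and 89.4 ± 32.6 TPM in sham fat. The ADAM sums were 171 ± 24.2 TPM in KPC fat and 156 ± 10.4 TPM in sham fat, and the ADAMTS sums were 129 ± 28.6 TPM in KPC fat and 125 ± 12.3 TPM in sham fat. In every family the ranges of the 2 groups overlapped.

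**Figure D3:**
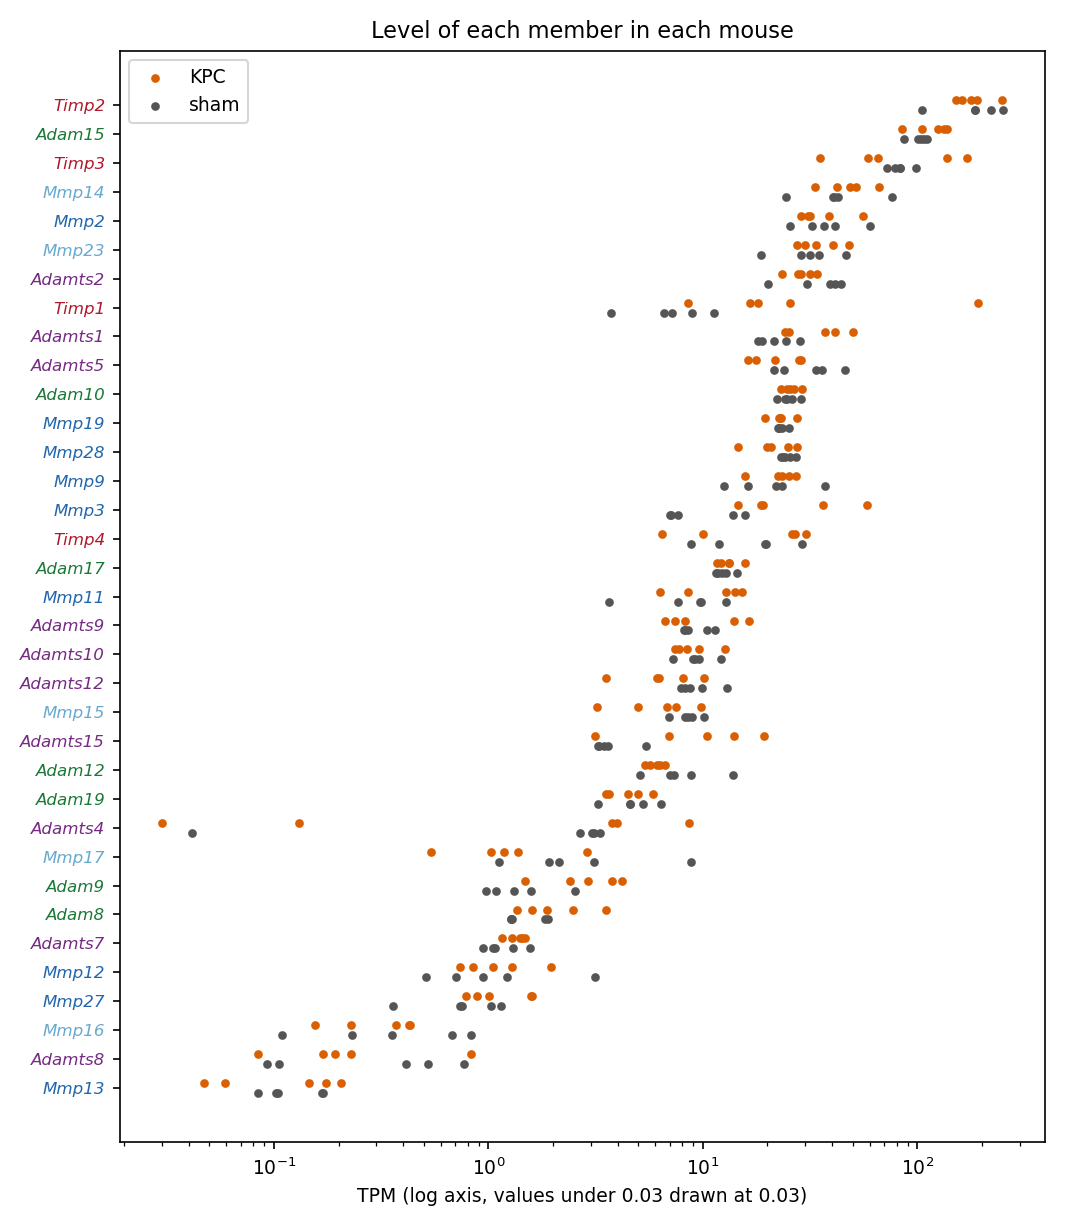
Level of each of the 35 members in TPM (log axis) in the KPC mice (upper row of points) and the sham mice (lower row), ordered by the mean over the 10 mice from Timp2 at 187 TPM to Mmp13 at 0.126 TPM. Values under 0.03 TPM are drawn at 0.03; the spread of Timp1 in KPC mice and of Adamts4 in both groups is wider than that of their neighbours in the order.

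Mouse by mouse, in log2(normalized count + 1), KPC mouse 1 had the highest value of 10 of the 34 tested members (Mmp3, Mmp19, Mmp23, Mmp27, Timp1, Adam8, Adam15, Adamts4, Adamts7 and Adamts10) and the lowest of 8 (Mmp15, Mmp17, Mmp28, Timp3, Timp4, Adamts5, Adamts9 and Adamts12). In that mouse 12 members lay more than 1 log2 unit from the sham mean, against 4 to 6 in KPC mice 2 to 5. KPC mouse 4 had the highest value of 5 members, Timp3, Adam17, Adamts1, Adamts9 and Adamts15. Sham mouse 1 had the lowest value of 11 members, among them Mmp2, Mmp14 and Timp2, and sham mouse 5 had the highest value of 8, including the same 3 genes. The summed fibroblast markers (7 of 7 present) were also lowest in sham mouse 1, at 1080 TPM, and highest in sham mouse 5, at 2622 TPM. KPC fat ranged from 1607 to 2408 TPM on that list, 0 of its 7 genes had an unadjusted limma p under 0.05, and its part in the members' values was not tested.

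Leaving out KPC mouse 1 moved the log2 differences of several members that did not pass. Without it they were -0.25 for Mmp15, 0.10 for Mmp23, -0.08 for Mmp28, 0.27 for Adam8 and -0.31 for Adamts12, each closer to 0 than with it. Timp3, Timp4, Mmp9, Mmp12 and Adamts9 then stood at 0.25, 0.41, 0.25, 0.21 and 0.25, and Adamts4 and Adamts10 at -1.62 and -0.15. Mmp16 and Mmp19 were at 0.03 and -0.07 and, like Timp3, had the other sign than over all 10 mice, while Mmp2 and Adam19 were at -0.0048 and -0.0019.

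**Figure D4:**
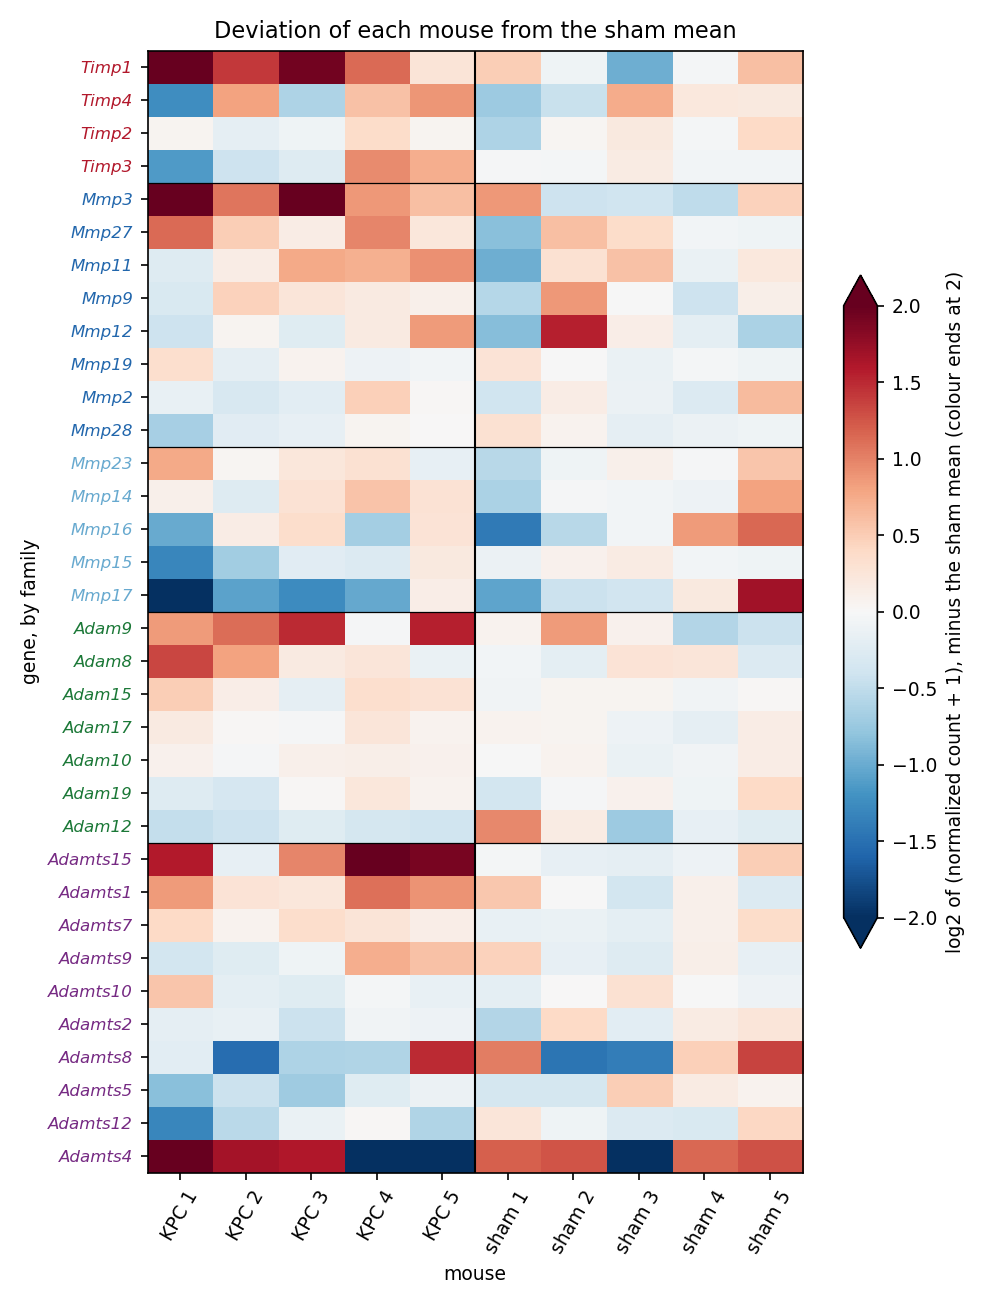
Deviation of each mouse from the sham mean for the 34 tested members, in log2 of normalized count + 1 (colour scale, ending at 2), with the 5 KPC mice in the left columns, the 5 sham mice in the right ones and genes grouped by family. The column of KPC mouse 1 has 12 members beyond 1 log2 unit, and sham mouse 1 has the lowest value of 11 members.

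Macrophage markers stood higher in KPC fat before adjustment, and the sums of macrophage and neutrophil markers were highest in KPC mouse 1. The 6 macrophage markers were all positive, 5 of 6 at an unadjusted limma p under 0.05, with and without KPC mouse 1. Their summed level ran from 802 to 3716 TPM in KPC fat, or to 1253 TPM without KPC mouse 1, and from 495 to 835 TPM in sham fat. The 6 neutrophil markers summed to 15.4 to 242 TPM in KPC fat, or to 53.0 TPM without KPC mouse 1, and to 11.2 to 57.0 TPM in sham fat, where sham mouse 1 was above KPC mice 2 to 5. None of these markers was at 0 in all mice, 4 of the 6 neutrophil markers were high enough to test, and 1 of those 4 was higher at an unadjusted p under 0.05. Both sums were highest in KPC mouse 1, the mouse with the highest Timp1, Mmp3 and Adam8. The same mouse had the lowest Mmp9 and Mmp12 of the KPC mice, at 15.8 and 0.736 TPM. The part of either sum in these values was not tested. Of the 6 adipocyte markers, 3 had positive and 3 negative log2 differences, from -0.61 to 0.05. Among them Pparg and Plin1 were lower in KPC fat at an unadjusted limma p under 0.05, with log2 differences of -0.56 ± 0.18 and -0.47 ± 0.16 (adjusted p = 0.255 and 0.279). The summed level of 5 epithelial markers of the tumour type was 17.7 to 42.7 TPM in KPC fat and 13.4 to 33.0 TPM in sham fat, and that of 5 pancreatic acinar markers was 11.5 to 32.4 TPM in KPC fat and 12.4 to 22.0 TPM in sham fat. Red cell markers summed to 8547 to 40711 TPM in KPC fat, highest in KPC mouse 1, and to 4748 to 12868 TPM in sham fat. Endothelial sums were 161 to 346 TPM in KPC fat and 221 to 270.0 TPM in sham fat, mesothelial sums 85.3 to 166 TPM in KPC fat and 77.6 to 186 TPM in sham fat, and T cell sums 3.49 to 6.39 TPM in KPC fat and 2.27 to 4.10 TPM in sham fat.

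**Figure D5:**
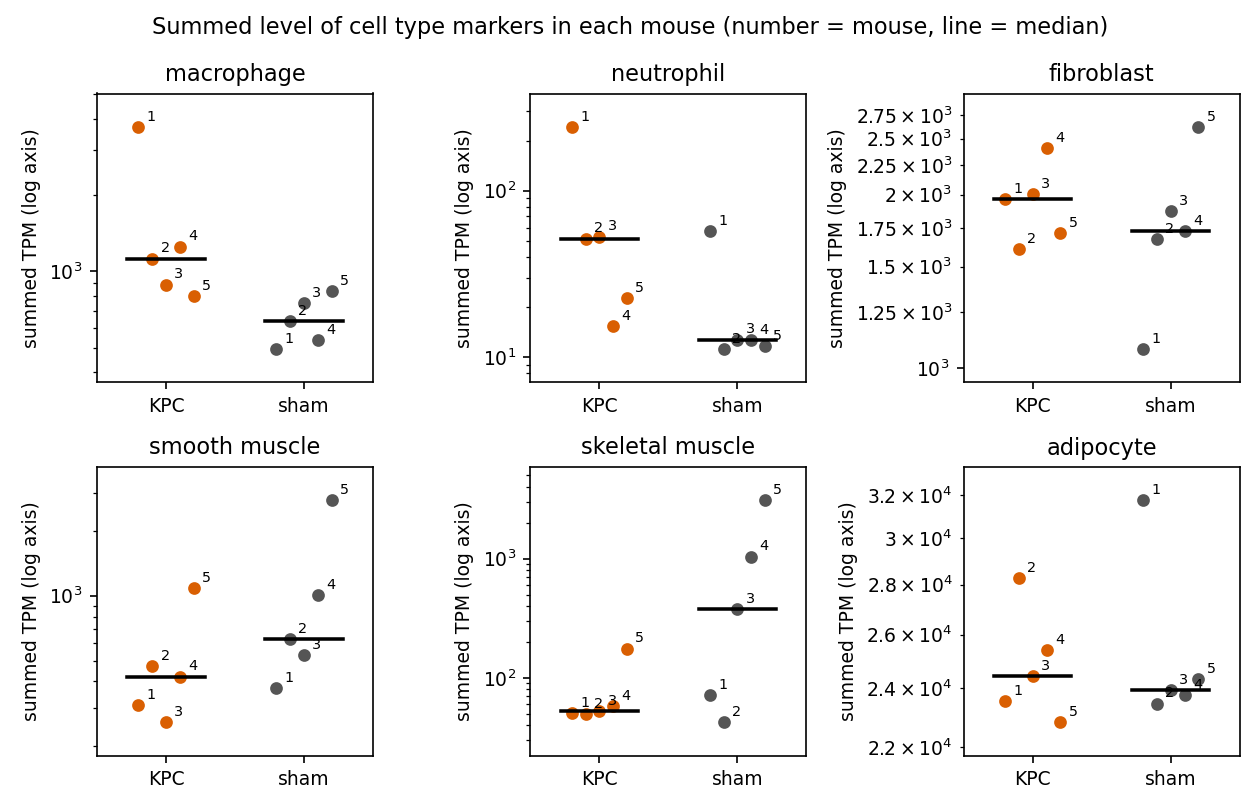
Summed TPM of the marker genes of 6 cell types in each of 5 KPC (left) and 5 sham mice (right), on log axes with points numbered by mouse and lines at the group medians. Macrophage and neutrophil sums are highest in KPC mouse 1, at 3716 and 242 TPM, and both muscle sums in sham mouse 5, at 2772 and 3092 TPM.

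None of the other members of the protease families was called. Of 32 further MMP, ADAM, ADAMTS and ADAMTS-like genes, 20 were tested, 0 were higher and 2 lower at an unadjusted p under 0.05, and the median log2 difference was -0.0035. Adamts19 averaged 0.378 ± 0.0763 TPM in KPC fat and 0.872 ± 0.337 TPM in sham fat (SD, n = 5 each; log2 difference -1.06, limma adjusted p = 0.197). Adamts16 averaged 1.43 ± 0.509 TPM in KPC fat and 2.22 ± 0.461 TPM in sham fat (adjusted p = 0.299). Adamtsl2 and Adam23 came next, with log2 differences of 1.28 ± 0.70 and -0.36 ± 0.20, the second -0.21 without KPC mouse 1. Without that mouse 1 gene of the list was higher at an unadjusted p under 0.05, Adamtsl3, at a log2 difference of 0.73 against 0.17 with it; it is named after its values were seen.

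Among 23 genes that activate, carry, inhibit or clear these proteases, 21 were tested, 0 were called, and 5 were higher and 1 lower at an unadjusted p under 0.05, with a median log2 difference of -0.0036. Without KPC mouse 1 the counts were 1 higher and 1 lower. Tspan17, one of the tetraspanins that escort ADAM10, averaged 51.0 ± 10.7 TPM in KPC fat and 72.2 ± 11.6 TPM in sham fat (SD, n = 5 each; log2 difference -0.48, limma adjusted p = 0.268). Tspan33, another of these tetraspanins, averaged 1.40 ± 0.245 TPM in KPC fat and 0.853 ± 0.201 TPM in sham fat, with no overlap between the groups (adjusted p = 0.276). Lrp1, an endocytic receptor that clears MMPs, ADAMTS proteases and TIMPs, averaged 184 ± 43.1 TPM in KPC fat and 133 ± 40.8 TPM in sham fat (adjusted p = 0.328). St14, a membrane serine protease, differed by 0.75 ± 0.30 on the log2 scale.

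Of 28 matrix genes whose products these proteases cut, 27 were tested, with a median log2 difference of -0.11. Of these 27, 8 had positive and 19 (70.4%) negative differences, against 53.1% negative among all genes tested. The list was chosen with earlier results of these data known, so this share is a description, not a test. None of the 27 was called, and 1 was higher and 4 lower at an unadjusted p under 0.05. Col15a1, a basement membrane collagen, averaged 143 ± 48.7 TPM in KPC fat and 214 ± 19.5 TPM in sham fat (SD, n = 5 each; log2 difference -0.63, limma adjusted p = 0.255). Col6a2, a chain of microfibrillar collagen, averaged 97.5 ± 30.5 TPM in KPC fat and 162 ± 58.2 TPM in sham fat (adjusted p = 0.268). Eln, the elastin gene, averaged 34.2 ± 8.02 TPM in KPC fat and 46.7 ± 10.1 TPM in sham fat (adjusted p = 0.342). Comp, the cartilage oligomeric matrix protein, averaged 1.87 ± 2.44 TPM in KPC fat and 0.417 ± 0.230 TPM in sham fat (adjusted p = 0.344). It stood at 6.17 TPM in KPC mouse 1, and without that mouse its log2 difference was 0.89 against 1.53 with it, and its unadjusted p was no longer under 0.05. Acan, the aggrecan gene, was too low to test.

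Of 21 genes whose products ADAMs release from the cell surface, 18 were tested, 0 were called, and 3 were higher and 0 lower at an unadjusted p under 0.05, with a median log2 difference of 0.09. Both TNF receptors were among them. Tnfrsf1a stood at 149.6, 117, 121, 137 and 134 TPM in KPC mice, against 104, 106, 108, 104 and 113 TPM in sham mice, so that the groups did not overlap (log2 difference 0.33 ± 0.09, limma adjusted p = 0.190). Tnfrsf1b averaged 20.4 ± 3.83 TPM in KPC fat and 14.4 ± 2.59 TPM in sham fat (SD, n = 5 each; adjusted p = 0.189), and Mertk, a receptor of apoptotic cells on macrophages, averaged 10.4 ± 3.88 TPM in KPC fat and 7.02 ± 1.20 TPM in sham fat (adjusted p = 0.283). Jag1, a Notch ligand, differed by -0.34 ± 0.16 on the log2 scale and did not pass. Tnf itself was too low to test.

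Of 14 cytokine, cytokine receptor and AP-1 genes known to induce MMPs or TIMPs in cultured cells, 11 were tested. Of these 11, 10 (90.9%) had positive log2 differences, against 46.9% of all genes tested. Their median was 0.59, and 0.47 without KPC mouse 1. The list was chosen with earlier results of these data known, so its share of positive genes and its median are descriptions, not tests. Only Osmr, a subunit of the oncostatin M receptor, passed the test. It rose to 18.3 ± 2.76 TPM in KPC fat, against 11.1 ± 1.46 TPM in sham fat (SD, n = 5 each; log2 difference 0.74 ± 0.10, limma adjusted p = 0.0299). The AP-1 genes Fosl2 and Junb were higher at an unadjusted p under 0.05 only, with adjusted p-values of 0.186 and 0.342. Fosl2 averaged 21.5 ± 4.60 TPM in KPC fat and 14.4 ± 1.41 TPM in sham fat, and Junb averaged 52.7 ± 35.6 TPM in KPC fat and 24.0 ± 11.8 TPM in sham fat. Junb reached 111 TPM in KPC mouse 1, and without that mouse its unadjusted p was no longer under 0.05. Il1b averaged 6.58 ± 11.1 TPM in KPC fat and 0.964 ± 0.873 TPM in sham fat and did not pass (adjusted p = 0.466), again with its highest level, 26.3 TPM, in KPC mouse 1. Its log2 difference was 0.80 without that mouse and 1.67 with it.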

How the data were processed

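Per the labels' protocols, visceral fat was frozen, RNA was taken with a Qiagen RNeasy Plus Mini column kit, and Illumina protocols gave the libraries. The authors deposited normalized counts, a signal with no value below 0, and a table of TPM. The submitters' processing notes name Salmon, DESeq, DESeq2 and mm10; the sources used here do not give versions, the annotation or the strand setting. The values under 30 of each library were divided by a range of trial steps, to undo a possible scaling factor. At the best step of each library, 31.1% to 47.3% of them were within 0.05 of a whole number. The values could thus not be turned back into whole reads for a count model. Salmon estimates how reads divide between similar genes.

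The comparison used limma 3.58.1 (R 4.3.3) with trended variances, fitted to log2(normalized count + 1), for genes with a mean of at least 10, which understates differences of low genes. The Benjamini and Hochberg adjustment was made over the 14203 genes. The fit was tested on simulated data, with independent normal draws for each gene. There it called 67% of genes with a true log2 difference of 1 and 90.4% of those with 2. Of its calls, 6.53% were false. The draws held no mouse set apart like KPC mouse 1, so these shares need not apply to the real data. Each sample is a mouse of its own per the labels, and n is 5 per group. Fold intervals cover 95%, and the median SE over genes was 0.172. Members and gene lists were chosen with earlier results of these data known, so their counts and shares are descriptions, not tests. Members at an unadjusted p under 0.05, the TIMPs, Mmp2, Mmp14 and Adam17 are given mouse by mouse, with Mmp17, Adamts4 and Tnfrsf1a added after their values were seen. From each further list up to 4 genes with the smallest p are named. The 21 alternatives changed the pseudocount, filter, scaling, variance model or samples, or added a block. Coordinates are from GENCODE vM21 on GRCm38 and promoter windows from RefSeq, GRCm38.p6.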

Additional observations from a re-analysis of the deposited data

Results flagged for a closer look

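The 80 groups of 5 mice examined were 70 of the members and the rest of only some of the marker lists. Of the 80 groups, 12 held a mouse whose gap to the next value was a large share of the whole range. Chance flags about 1 in 20 groups if values are normally distributed, which was not tested for TPM. Among the members 6 of 70 groups held such a mouse. In KPC fat these were Timp1 in mouse 1, at 190.8 TPM with the next value at 25.5, and Adamts8 in mouse 5, at 0.8302 TPM with the next at 0.2279. In sham fat they were Mmp12 in mouse 2 (3.136 TPM, next 1.223), Mmp17 in mouse 5 (8.766 TPM, next 3.109), Adamts15 in mouse 5 (5.441 TPM, next 3.629) and Adamts4 in mouse 3 (0.04133 TPM, next 2.675).

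Among the cell type markers, KPC mouse 1 was set apart by its summed macrophage markers, at 3716 TPM with the next at 1253, and by its neutrophil markers, at 241.8 TPM with the next at 53.03. KPC mouse 5 was set apart by smooth muscle markers (1087 TPM, next 470.3) and skeletal muscle markers (175.5 TPM, next 57.7). In sham fat the neutrophil sum of mouse 1 was 56.95 TPM with the next at 12.77, and the smooth muscle sum of mouse 5 was 2772 TPM with the next at 1007.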

How the results depend on the processing

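Of the 34 tested members, 21 kept the sign of their log2 difference in all 21 alternatives and 13 did not. Mmp3, Adam9, Adamts1 and Adamts15 had an unadjusted limma p under 0.05 in all 21. The members' median difference stayed between -0.02 and 0.12. Genes called higher numbered 7 in the reported fit, 2 with log2(TPM + 1), 4 with log2(TPM + 0.1), 17 with TMM scaling and 2 without a variance trend. Genes called lower numbered 1, and 0 with log2(TPM + 1). Leaving out 1 mouse at a time gave 1 to 66 genes higher and 1 to 4 lower: 66 higher without KPC mouse 1, 13 without KPC mouse 2, 1 without KPC mouse 4, 4 without KPC mouse 5, 2 without sham mouse 1, 2 or 3, 1 without sham mouse 4 and 3 without sham mouse 5. Members called higher numbered 0 to 1, the 1 being Adamts15 without KPC mouse 2, and members lower at an unadjusted p under 0.05 numbered 0 to 3. With either TPM scale that count was 0, against 1 as reported. The cause of these shifts was not tested. Errors of the log2 differences ran from 0.08 for Adam10 to 1.83 for Adamts4, so for low or uneven genes only large differences were detectable.

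The correlations of same-numbered deviations were 0.068, 0.191, 0.00505, 0.02 and 0.171, and only mice 2 and 5 correlated best with their own number. Such values cannot show whether the mice were paired by design, so the reported fit has no pairing and blocks were tried as alternatives. With the replicate block 3 genes were called higher and 2 members were lower at an unadjusted p under 0.05 (Adamts5 and Mmp17), and with the title number as a block 3 genes and 4 members (Adamts5, Mmp17, Mmp15 and Adamts12). Members higher at an unadjusted p under 0.05 numbered 6 with either block, against 5 as reported. The added member was Mmp11 with the replicate block and Adam8 with the title number block. For Mmp17 the unadjusted limma p was 0.0567 as reported, 0.000231 with the replicate block and 0.00356 with the title number block. Its limma adjusted p ran from 0.104 to 0.584 over the 21 alternatives.

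Signs turned for members near 0: Mmp12 (-0.012) and Mmp19 (-0.018) with log2(TPM + 1), Mmp19 (-0.019) with log2(TPM + 0.1), Timp2 (-0.011), Timp4 (-0.0052) and Adamts10 (0.012) with the title number block, and Adamts10 (0.0054) with TMM. Over fits without 1 mouse, the log2 differences ran from -0.16 to 0.12 for Mmp2, -0.0039 to 0.35 for Mmp9, -0.13 to 0.47 for Mmp12, -0.53 to 0.11 for Mmp16, -0.067 to 0.084 for Mmp19, -0.12 to 0.14 for Timp2, -0.27 to 0.25 for Timp3, -0.12 to 0.41 for Timp4, -0.15 to 0.045 for Adam19, -1.95 to 0.74 for Adamts4, -0.74 to 0.043 for Adamts8, -0.029 to 0.25 for Adamts9 and -0.15 to 0.065 for Adamts10.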
